A study of Mus musculus with 35 samples.

Results

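The 37 genes described here are transport and identity genes of the kidney proximal tubule, out of 31053 genes counted in 35 libraries of newborn mouse kidney. They were chosen by name, by the gene symbol paired with each Ensembl identifier, and not by their values. All 37 were in the count tables, and all 37 passed the filter on low counts over the 35 libraries, as did 13728 genes in all. The libraries hold 3′-end messenger RNA reads of whole kidneys at postnatal day 2, before cysts form, from C57BL/6 mice of both sexes. The study asked what loss of Flcn, which encodes folliculin, does to the kidney with and without the transcription factors Tfeb and Tfe3. Set A holds 5 control Flcn, 5 Flcn KO, 3 control Flcn/Tfeb and 4 Flcn/Tfeb DKO libraries. The Flcn/Tfe3 cross is in 2 further sets of count tables, set B with 3 controls (replicates 1 to 3) and 6 Flcn/Tfe3 DKO libraries (replicates 1 to 6), and set C with 5 controls (replicates 4 to 8) and 4 Flcn/Tfe3 DKO libraries (replicates 7 to 10).

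The Flcn KO kidneys were Flcn flox/flox with Ksp-cre+, and the study gives Flcn flox/flox as the genotype of its controls. The Flcn/Tfeb DKO kidneys also carried Tfeb flox/flox, and the Flcn/Tfe3 DKO kidneys were Tfe3-/- in the whole body. Ksp-cre is driven by the cadherin 16 promoter, which is active mainly in the collecting duct, the distal tubule and the thick ascending limb. Recombination in proximal tubule cells was not measured here. Flcn counts did not separate the groups: the level of Flcn was 11.9 to 16.4 CPM (counts scaled to the library size) in control Flcn and 10.3 to 18.8 CPM in Flcn KO libraries. Tfe3 was at 15.3 to 24.8 CPM in control Flcn/Tfe3 and 12.4 to 24.6 CPM in Flcn/Tfe3 DKO libraries, and Tfeb was at 7.0 to 19.5 CPM in control Flcn/Tfeb and 6.48 to 7.94 CPM in Flcn/Tfeb DKO libraries. Reads from the 3′ end can lie outside a deleted part of a gene, so these counts do not check the labels, and each group below is the set of libraries labelled with that name.

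The proximal tubule takes back most of what the glomerulus filters. Sodium-driven carriers in its brush border bring in phosphate, glucose, amino acids, sulfate and organic acids. The receptors megalin and cubilin take up filtered proteins. Organic anion and cation transporters secrete drugs and waste products. Many of these genes are known to be controlled by the transcription factor Hnf4a, and the segment goes on maturing after birth in the mouse. In these whole-kidney libraries, fewer proximal tubule cells and less RNA per cell cannot be told apart.

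Library totals ran from 1652649 to 4239356 counts with a median of 2992169, so 3 counts, taken as the floor, were worth 0.639 to 2.09 CPM. The mitochondrial share of the counts was 1.79% to 11.9%, with medians of 10.4% in set A, 2.16% in set B and 4.08% in set C. It was 10.4% to 11.9% in the Flcn/Tfeb DKO libraries and 4.47% to 10.7% in their controls. Within set A 3 control libraries stood apart: control Flcn/Tfeb replicate 3 had a share of 4.47%, with 9.07% of its reads on no gene against 17.8% and 19.9% in the other 2 controls, and control Flcn replicates 4 and 5 had shares of 4.88% and 4.93%. Libraries with Xist at 100 CPM or more, as in female kidneys, were unevenly spread, with 4 of 5 controls and 2 of 4 DKO libraries in set C and 1 of 3 controls and 1 of 6 DKO libraries in set B. In set A they were 1 of 5 control Flcn and 1 of 5 Flcn KO libraries, but 2 of 3 control Flcn/Tfeb and 3 of 4 Flcn/Tfeb DKO libraries. The labels do not say that each library was a separate animal, so p-values measure the spread between these libraries.

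The promoters of 4 of the genes are shown because the results below turn on their genes or because they hold a match to a motif of a named factor. Each is the 250 bases before the start of the gene on mouse genome build GRCm38.p6, from RefSeq, on the plus strand and written 5′ to 3′. Slc22a6 and Slc22a8 are neighbouring organic anion transporters on chromosome 19. Capitals in Slc3a1 mark CAAAGTCCA, a form of the Hnf4a site, and capitals in Amn mark GTCACGTG, a form of the E-box bound by Tfeb and Tfe3.
Slc22a6 (chr19:8617746-8617995): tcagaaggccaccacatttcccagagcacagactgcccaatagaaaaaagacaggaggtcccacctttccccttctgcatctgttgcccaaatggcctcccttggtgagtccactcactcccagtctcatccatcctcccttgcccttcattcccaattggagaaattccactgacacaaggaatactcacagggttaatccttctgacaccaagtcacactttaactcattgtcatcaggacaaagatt
Slc22a8 (chr19:8592932-8593181): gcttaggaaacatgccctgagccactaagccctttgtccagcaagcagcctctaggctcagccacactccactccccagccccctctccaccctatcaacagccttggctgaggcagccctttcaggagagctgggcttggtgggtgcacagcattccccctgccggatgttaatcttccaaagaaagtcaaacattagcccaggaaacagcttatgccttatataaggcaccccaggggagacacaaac
Slc3a1 (chr17:85028097-85028346): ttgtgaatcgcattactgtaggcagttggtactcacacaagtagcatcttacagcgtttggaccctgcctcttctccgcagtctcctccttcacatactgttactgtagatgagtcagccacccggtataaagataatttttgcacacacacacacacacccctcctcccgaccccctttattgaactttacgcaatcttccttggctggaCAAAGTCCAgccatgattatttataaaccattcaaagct
Amn (chr12:111270846-111271095): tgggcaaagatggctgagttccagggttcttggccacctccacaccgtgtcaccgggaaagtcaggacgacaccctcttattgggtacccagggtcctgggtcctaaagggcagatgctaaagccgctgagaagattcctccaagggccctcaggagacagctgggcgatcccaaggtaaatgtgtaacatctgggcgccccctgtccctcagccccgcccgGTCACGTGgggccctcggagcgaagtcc

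Promoters were found for 33 of the 37 genes, and 4 motifs were searched on both strands in the 250 bases before the start. CAAAGTCCA was in the promoter of 1 of these 33 genes, Slc3a1, where it starts 39 bases before the gene, and in 0.451% of the 27025 genes with a promoter. The palindromic Hnf1 consensus was in none of the 33 and in 0.0111% of all genes. GTCACGTG was in 1 of the 33, Amn, 28 bases before the gene, and in 2.11% of all genes. Its core CACGTG, which lies inside GTCACGTG, was in 5 of the 33 (Slc5a1, Amn, Slc9a3, Slc13a3 and Ass1) and in 6.86% of all genes. A match is a description of the letters in this window only.

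In the newborn control kidneys nearly all of the 37 genes were expressed, and there were no older kidneys to compare them with. Of the 37 genes, 34 averaged at least 10 CPM over the 16 control libraries, 19 averaged at least 100 CPM, and 17 ranked in the top 10% of all genes passing the filter. These levels are not divided by transcript length, since a 3′-end read is taken once per transcript. Together the genes took 7036 CPM, of which 54.4% came from 6 genes. Kap, an androgen-regulated secreted kidney protein, was the highest at 1078 ± 326 CPM (SD, n = 16 for each level in this paragraph), from 598 to 1819 CPM with a median of 1009 CPM. Slc34a1, the main sodium phosphate cotransporter, was at 733 ± 175 CPM, from 512 to 1106 CPM with a median of 695 CPM. Miox, the first enzyme of inositol breakdown, was at 621 ± 199 CPM, from 304 to 878 CPM with a median of 653 CPM. The ranges of these 3 overlapped. Lrp2, which encodes megalin, was at 549 ± 121 CPM, from 361 to 779 CPM with a median of 570.0 CPM. The lysosomal protease Napsa was at 499 ± 103 CPM, from 334 to 734 CPM with a median of 468 CPM. The basolateral bicarbonate carrier Slc4a4 was at 345 ± 80.2 CPM, from 233.5 to 503 CPM with a median of 313 CPM. Neighbours in this order differed by less than the SD of the higher gene, except for Kap over Slc34a1 and Napsa over Slc4a4.

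**Figure D1:**
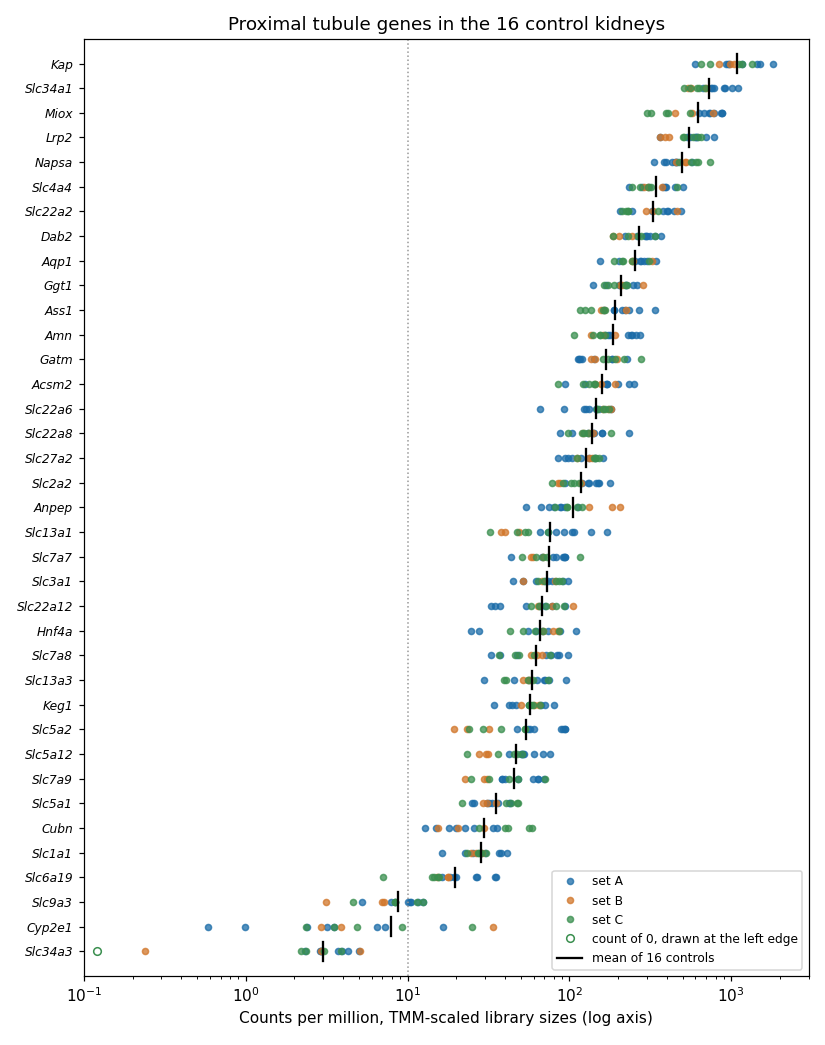
Level in CPM (log axis) of each of the 37 genes in the 16 control libraries, with a point for each library coloured by set and a bar at the mean, ordered by mean. An open point marks a count of 0 and the dotted line 10 CPM. Kap leads at a mean of 1078 CPM and Slc34a3 is last at 2.98 CPM, and Cyp2e1 spans 0.584 to 33.9 CPM.

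Members of the same transport system stood at very different levels. Slc34a3, the other renal phosphate cotransporter, averaged 2.98 ± 1.43 CPM (SD, n = 16) against 733 CPM for Slc34a1, and Slc34a1 had 111 to 2272 times its counts in every one of the 34 libraries in which Slc34a3 was counted. Slc34a3 had a count of 0 in 1 library, control Flcn/Tfe3 replicate 5, the only 0 among the 37 genes in 35 libraries. Slc9a3, the sodium proton exchanger of the brush border, was at 8.69 ± 2.80 CPM, and Cyp2e1, a cytochrome P450, at 7.92 ± 9.40 CPM. In the endocytic group, Lrp2 had 8.75 to 39.8 times the counts of Cubn, which encodes cubilin, in the 35 libraries. Amn, which brings cubilin to the cell surface, had 1.91 to 16.7 times the counts of Cubn. Of the organic ion transporters, Slc22a6 and Slc22a8 were close to each other, with a ratio of 0.624 to 1.86 and Slc22a6 higher in 21 of 35 libraries.

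Both sodium glucose cotransporters were present, and their order depended on the set of libraries. Slc5a2, the carrier of the early proximal tubule, was higher than Slc5a1, the carrier of its late part, in all 17 libraries of set A. In the Flcn/Tfe3 cross Slc5a2 was higher in 1 of 3 controls and 1 of 6 DKO libraries of set B, and in 2 of 5 controls and 0 of 4 DKO libraries of set C. The mean of Slc5a2 was 76.8 CPM in control Flcn and 68.4 CPM in control Flcn/Tfeb libraries, against 24.8 CPM and 39.6 CPM in the controls of sets B and C. Those of Slc5a1 were 34.0, 32.9, 31.7 and 40.2 CPM in the same order. Set and cross cannot be told apart here. For none of the 37 genes did every control of set A lie above, or every one below, all controls of sets B and C, against 0.306% of all genes above and 0.539% below.

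The proximal tubule genes at or above 10 CPM varied between control libraries about as much as all genes above that bound, which were not matched by level. The coefficient of variation over the 16 controls had a median of 26.8% for the genes at or above 10 CPM and 25.4% for all 9795 genes at that level. Cyp2e1 was the extreme, with a coefficient of variation of 119% and levels from 0.584 to 33.9 CPM.

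The controls of set B and set C were compared directly. In edgeR's quasi-likelihood test 6.45% of 12426 genes were called at an adjusted p under 0.05, and 2 of 36 proximal tubule genes were, 1 higher and 1 lower in set C (3.17% and 3.28% of all genes). Anpep, the brush border aminopeptidase, was at 205, 183 and 132 CPM in set B and 119, 95.9, 111, 96.2 and 81.1 CPM in set C. The log2 difference was -0.79 (SE 0.17, edgeR adjusted p = 0.0187). Cubn was at 20.5, 29.6 and 15.5 CPM in set B and 58.6, 27.8, 40.2, 56.3 and 41.9 CPM in set C. Its ranges overlapped through set B replicate 2 and set C replicate 5, and the log2 difference was 1.04 (SE 0.26, edgeR adjusted p = 0.0314). Lrp2 had the next lowest p, with a log2 difference of 0.55 (SE 0.17, edgeR adjusted p = 0.0613). Both calls were lost with Xist or with the mitochondrial share as a covariate, leaving 0 of 36 called, and 19 and 12 of 12426 genes in all. Leaving out 1 control at a time gave 0 to 5 called. The 5 came without replicate 6, where 1949 of 12388 genes were called. The median log2 difference of the 36 genes was -0.0044, against 0.0033 over all genes tested.

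The controls of the Flcn and Flcn/Tfeb crosses did not give a call for any of the 37 genes, and none was called among 12079 genes (0.0%) in edgeR, where 883 genes had an unadjusted p under 0.05. Of the 37 genes 29 were lower in control Flcn/Tfeb, against 45.8% of all genes, and 3 of them had an unadjusted p under 0.05 and were lower, as were 3.44% of all genes. The lowest p was for Slc22a2, the organic cation transporter, with a log2 difference of -0.71 (SE 0.20, edgeR adjusted p = 0.678). DESeq2 called this gene and no other of the 37, where it called 24 of 4301 genes.

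In the libraries labelled Flcn KO no proximal tubule gene passed the test, while most lay somewhat below the controls. Of 11932 genes tested 62 (0.52%) were called in edgeR, and 0 of the 35 proximal tubule genes tested were. DESeq2 called none of them either, and Slc34a3 and Cyp2e1 were left out by the filter. Of the 35, 29 had a log2 fold change below 0, against 51.5% of all genes, and their median was -0.19, against -0.0074. An unadjusted p under 0.05 was found for 9 of the 35, all of them lower, where 3.81% of all genes were lower at that p. Without control Flcn replicates 4 and 5, whose mitochondrial share was low, 34 of 36 genes tested were below 0 with a median of -0.28, and 0 were called, an alternative chosen after the values were seen. For none of the 35 did every Flcn KO library lie on the same side of every control, as did 0.696% of all genes below and 1.69% above.

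By role, all 4 organic ion transporters were below 0 (median -0.36, range -0.50 to -0.25), and 3 of the 4 had an unadjusted p under 0.05. All 4 genes of receptor-mediated endocytosis (-0.20 to -0.030) and all 3 glucose transporters (-0.35 to -0.28) were below 0 as well. The amino acid transporters were divided, 3 of 6 below 0 with a median of -0.034, and Kap and Napsa were at 0.0078 and 0.044.

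Slc22a8, the organic anion transporter Oat3, was at 158, 131, 140.2, 142 and 159 CPM in the 5 controls and 89.2, 133, 96.8, 77.1 and 117 CPM in the 5 Flcn KO libraries. A single Flcn KO library, replicate 2, reached into the range of the controls. Its log2 fold change was -0.50 (SE 0.13, edgeR adjusted p = 0.146), and with the mitochondrial share as a covariate it was -0.47 (edgeR adjusted p = 0.0376), the only one of 35 proximal tubule genes called in a fit that called 1.23% of all genes. Over all 35 libraries, within groups, Slc22a8 ran with the library total (r = 0.60) and against the mitochondrial share (r = -0.48).
Slc22a6, the organic anion transporter Oat1, was at 123, 182, 151, 127 and 133 CPM in the controls and 130.1, 121, 81.0, 74.6 and 113 CPM in Flcn KO libraries. The highest Flcn KO library lay within the controls and the other 4 below all of them, with a log2 fold change of -0.46 (SE 0.16, edgeR adjusted p = 0.341).
Slc1a1, which carries glutamate and aspartate, was at 25.2, 36.8, 40.9, 28.5 and 29.9 CPM in the controls and 28.0, 28.4, 17.3, 19.4 and 21.7 CPM in Flcn KO libraries. The groups overlapped in replicates 1 and 2 of Flcn KO, and the log2 fold change was -0.47 (SE 0.18, edgeR adjusted p = 0.409).
Hnf4a was at 62.4, 55.5, 73.3, 87.9 and 68.1 CPM in the controls and 44.3, 66.3, 36.8, 35.1 and 66.9 CPM in Flcn KO libraries. The Flcn KO libraries fell into a higher pair, within the controls, and 3 lower ones, and the log2 fold change was -0.46 (SE 0.18, edgeR adjusted p = 0.424).
Anpep was at 80.5, 88.6, 94.5, 87.6 and 74.9 CPM in the controls and 68.4, 83.2, 47.8, 67.7 and 66.0 CPM in Flcn KO libraries. All but replicate 2 of Flcn KO lay below the controls, with a log2 fold change of -0.35 (SE 0.13, edgeR adjusted p = 0.411).

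Levels of markers of other kidney cell types also differed between the Flcn KO and control libraries. The summed level of 8 podocyte markers was 551 to 626 CPM in the controls and 420.2 to 537 CPM in Flcn KO libraries, and that of 5 distal convoluted tubule markers was 691 to 769 CPM and 556 to 676 CPM. The 7 intercalated cell markers went the other way, from 145 to 220.0 CPM in the controls to 397 to 550.0 CPM in Flcn KO libraries, and these 3 were the only ones of 14 marker lists whose sums did not overlap between the groups, where 0.696% of single genes were below without overlap and 1.69% above. In edgeR 0 of 8 podocyte, 0 of 5 distal convoluted tubule and 3 of 6 intercalated cell markers tested were called, with 3, 1 and 5 at an unadjusted p under 0.05. Of 6 thick ascending limb markers 5 were above 0 and 2 were called higher, among them Umod, which encodes uromodulin, at 204 to 265 CPM in the controls and 397 to 544 CPM in Flcn KO libraries. The list summed to 944 to 1414 CPM and 1373 to 1781 CPM. Of 7 principal cell markers 5 were above 0 and 1 was called higher (sums of 444.5 to 544 CPM and 395 to 515 CPM). All 6 developing nephron genes were below 0 (797 to 1446 CPM and 732 to 1038 CPM) and all 6 red blood cell genes tested were above 0 (3531 to 8769.8 CPM and 3613 to 12099 CPM), with none called in edgeR and 1 and 0 at an unadjusted p under 0.05. Of 7 nephron progenitor genes tested 4 were below 0, and 3 were lower at an unadjusted p under 0.05 in edgeR. Of 7 stroma genes tested 5 were below 0, and 2 were lower at that p. None of either list was called. None of the listed markers was at 0 in all libraries. The part of these shifts in the proximal tubule values was not tested.

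**Figure D2:**
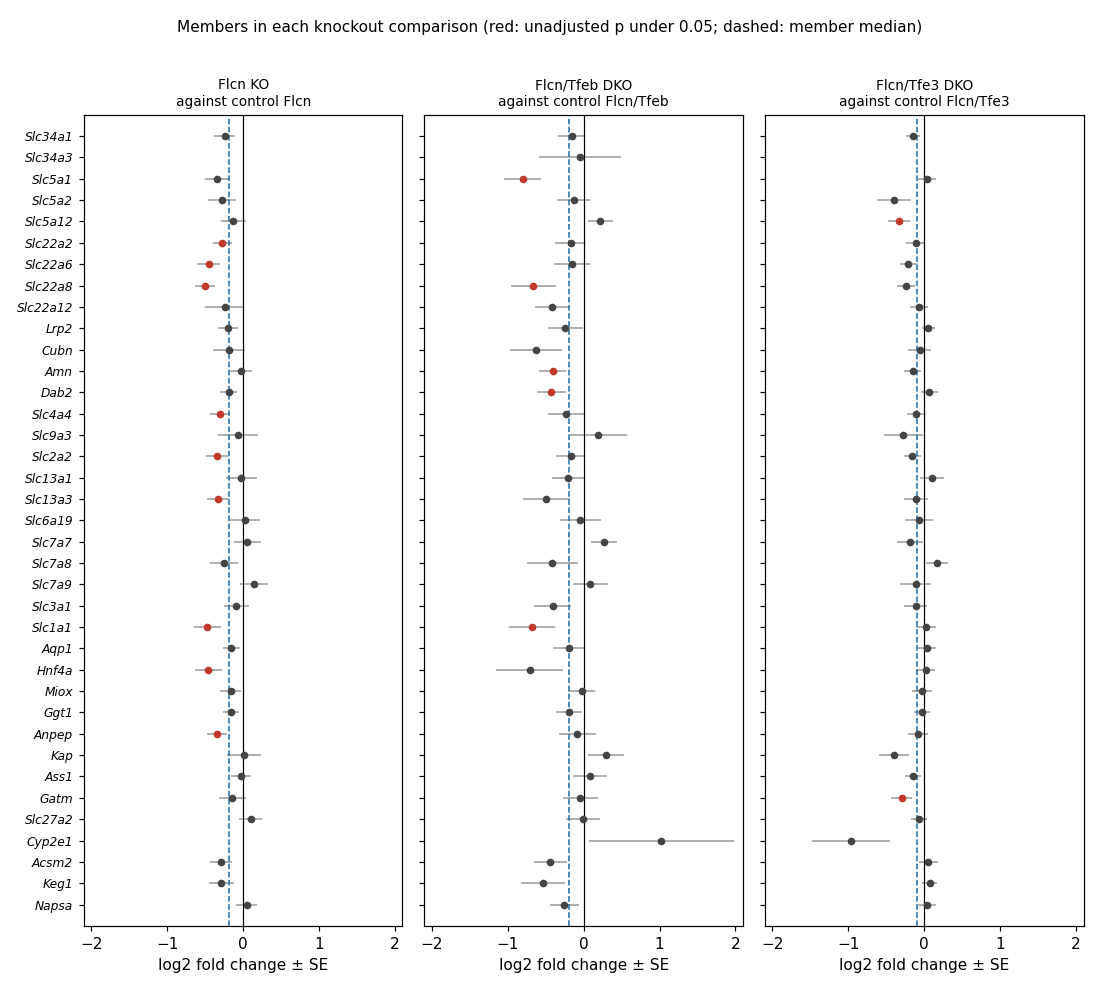
Log2 fold change with its SE for each of the 37 genes in the 3 comparisons of knockout with control libraries, with a solid line at 0 and a dashed line at the median; red marks an unadjusted p under 0.05. In Flcn KO 29 of 35 genes lie below 0, in Flcn/Tfeb DKO 30 of 37 and in Flcn/Tfe3 DKO 25 of 36, and none is called.

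The libraries labelled Flcn/Tfeb DKO gave 0 calls among 12469 genes (0.0%) in edgeR and so 0 of 37 proximal tubule genes, with 632 genes at an unadjusted p under 0.05. DESeq2 called none of the 37 either. As in the Flcn cross, most of the genes lay below their controls, 30 of 37 against 52.1% of all genes, with a median log2 fold change of -0.19 against -0.017. Of the 37, 5 had an unadjusted p under 0.05, all lower, where 3.21% of all genes were lower at that p. All 4 endocytosis genes (-0.63 to -0.24), all 4 organic ion transporters (-0.66 to -0.15) and all 3 glucose transporters (-0.80 to -0.13) were below 0, and 2 of 6 amino acid transporters and 2 of 9 enzymes were above it. The mitochondrial share was higher in the DKO group, and with it as a covariate the median of the 37 was 0.058 and 22 of 37 were above 0. Within groups, the mean of the 37 ran with that share at r = -0.15 over the 17 libraries of set A. The cause was not tested. Leaving out 1 library gave medians from -0.31, without control Flcn/Tfeb replicate 2, to -0.072, without control replicate 3.

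Slc5a1 was at 30.9, 25.1 and 42.5 CPM in the 3 controls and 21.4, 20.1, 14.8 and 20.5 CPM in the 4 Flcn/Tfeb DKO libraries. It was the only one of the 37 genes with every DKO library below every control, as were 2.74% of all genes, none of the 37 had every DKO library above every control (2.9% of all genes), and its log2 fold change was -0.80 (SE 0.25, edgeR adjusted p = 0.798).
Hnf4a was at 27.4, 24.5 and 109.5 CPM in the controls and 38.5, 27.2, 31.6 and 38.5 CPM in Flcn/Tfeb DKO libraries. The DKO libraries lay among the controls, whose replicate 3, the library of low mitochondrial share, was far above the others, and the log2 fold change of -0.71 (SE 0.44, edgeR adjusted p = 0.798) turned to 0.39 without that replicate and to 0.86 with the mitochondrial share as a covariate.
Slc22a8 was at 104, 87.0 and 235 CPM in the controls and 102, 84.2, 90.2 and 88.5 CPM in DKO libraries. Again replicate 3 of the controls stood above all other libraries, and the log2 fold change of -0.66 (SE 0.30, edgeR adjusted p = 0.798) was -0.069 without that replicate and 0.26 with the mitochondrial share as a covariate.
Slc1a1 was at 22.8, 16.3 and 37.9 CPM in the controls and 13.5, 18.1, 14.1 and 20.5 CPM in DKO libraries. The groups overlapped through control replicate 2, and the log2 fold change of -0.68 (SE 0.31, edgeR adjusted p = 0.798) was -0.26 without control replicate 3 and -0.041 with the mitochondrial share as a covariate.
Cyp2e1 was at 3.50, 0.584 and 16.7 CPM in the controls and 21.4, 1.94, 2.28 and 37.4 CPM in DKO libraries. Both groups spanned the range from near the floor to above 15 CPM, and the log2 fold change of 1.02 (SE 0.96, edgeR adjusted p = 0.808) ran from 0.57 without control replicate 2 to 2.96 without control replicate 3, and was 0.077 with a replicate block and 3.82 with the mitochondrial share as a covariate.

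The 8 podocyte markers summed to 474 to 585 CPM in the Flcn/Tfeb controls and 382 to 468 CPM in DKO libraries, without overlap, and 7 of the 8 were below 0 with 0 called. The 10 cell cycle genes summed to 794 to 1240 CPM in the controls and 656 to 764 CPM in DKO libraries, also without overlap, and 8 of the 10 were below 0 with a median log2 fold change of -0.61, 0 called and 4 at an unadjusted p under 0.05. The 7 intercalated cell markers summed to 188 to 236 CPM and 269.8 to 288 CPM, with 5 above 0, 2 below 0 and 0 called, and these were the 3 of 14 lists without overlap, where 2.74% of single genes were below without overlap and 2.9% above. All 7 myeloid markers tested were above 0 (median 0.18), as were all 6 red blood cell genes tested (median 0.23), and 7 of 8 endothelial markers were below 0 (median -0.18), with sums that overlapped: 124 to 203 CPM in DKO libraries against 111 to 153 CPM in the controls for the 8 myeloid, 4086 to 7393 CPM against 3509 to 6091 CPM for the 7 red blood cell and 423 to 485 CPM against 444.2 to 661 CPM for the 8 endothelial markers. None of the 3 lists had a call in edgeR, with 1, 0 and 1 genes at an unadjusted p under 0.05. Their part in the proximal tubule values was not tested.

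**Figure D3:**
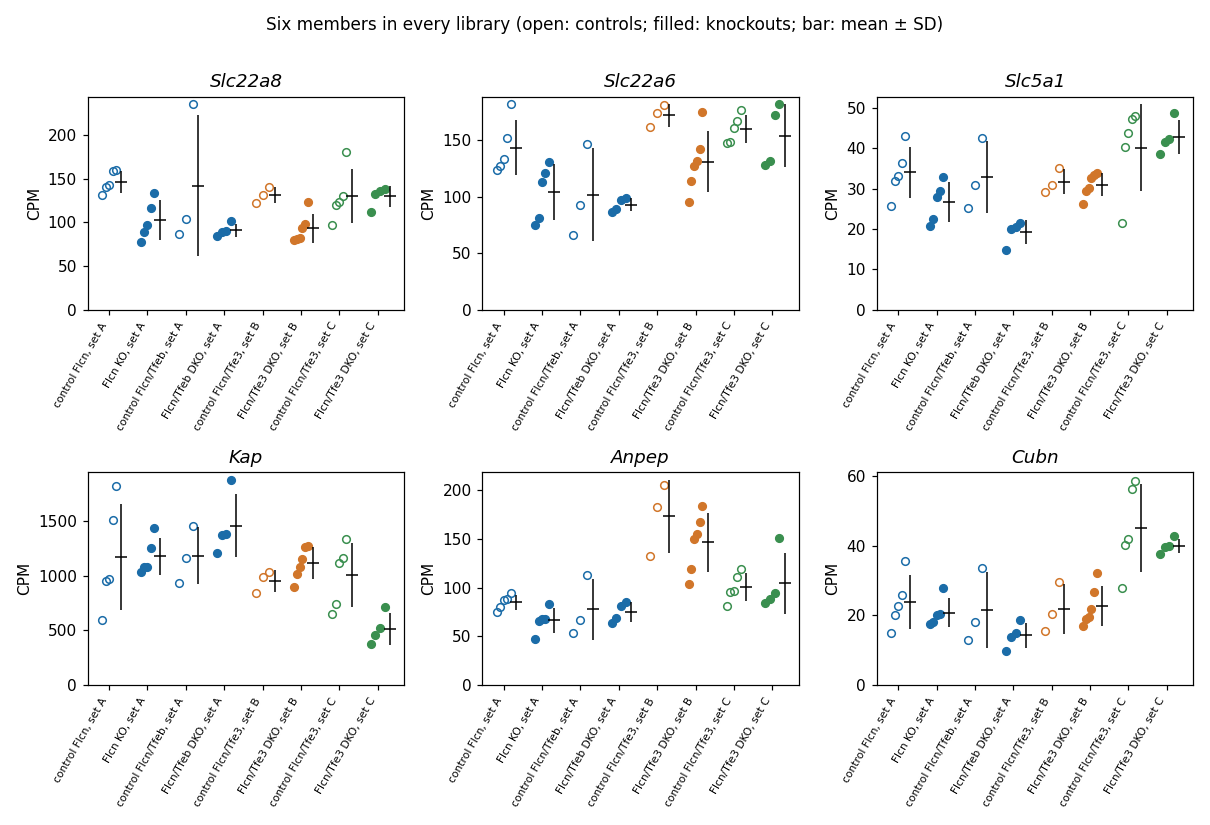
Level in CPM of 6 of the genes in each of the 35 libraries by group and set, open for controls and filled for knockouts, with the mean ± SD of each group beside its points. Slc5a1 is lower in every Flcn/Tfeb DKO library than in their controls, as are 2.74% of all genes. Kap is lower in set C of the Flcn/Tfe3 DKO libraries (374 to 717 CPM) than in set B (897 to 1274 CPM).

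In the libraries labelled Flcn/Tfe3 DKO, tested with a term for the set, 48 of 12456 genes (0.385%) were called in edgeR and 0 of 36 proximal tubule genes were. DESeq2 called none either, and Slc34a3 was left out by the filter. Of the 36, 25 were below 0, against 48.1% of all genes, and 2 had an unadjusted p under 0.05, both lower, where 3.48% of all genes were lower at that p. The median log2 fold change was -0.091, against 0.0090 over all genes, and it was -0.025 in set B alone and -0.16 in set C alone. All 4 organic ion transporters were below 0 (-0.23 to -0.072), while the endocytosis genes were 2 below and 2 above. The estimates nearest a call were those of the lactate carrier Slc5a12, at -0.33 (SE 0.14, edgeR adjusted p = 0.590), and of Gatm, the first enzyme of creatine synthesis, at -0.30 (SE 0.14, edgeR adjusted p = 0.654). For none of the 36 did every DKO library lie on the same side of every control of its set, as did 0.0321% of all genes below and 0.273% above.

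Levels of such markers differed in the Flcn/Tfe3 cross too. All 7 intercalated cell markers were above 0 (median 0.69, 2 called), and they summed to 159 to 200 CPM in the controls and 288 to 446 CPM in the DKO libraries of set B, and to 170 to 260.03 CPM and 281 to 388 CPM in set C. Of 5 thick ascending limb markers tested 3 were above 0 and 2 were called higher, with sums of the list's 6 genes of 919 to 1093 CPM against 971 to 1374 CPM in set B and 907 to 1105 CPM against 1056 to 1141 CPM in set C. All 6 red blood cell genes tested were below 0 (median -0.63, 0 called, 5 at an unadjusted p under 0.05). The list of 7 such genes summed to 3619 to 5903 CPM in the controls and 3248 to 6202 CPM in the DKO libraries of set B, and to 2093 to 7600 CPM and 1411 to 1853 CPM in set C, without overlap in set C. Of 14 lists, 1 was without overlap in set B (intercalated cell, above). In set C there were 3 (intercalated cell above, red blood cell and hepatocyte below). For single genes the share without overlap was taken only over both sets at once, 0.0321% below and 0.273% above. Separation in both sets asks more than in 1 set, so these shares are no background for the counts per set. The hepatocyte list was chosen after the values were seen. Of 7 principal cell markers 4 were above 0 and 3 below. At an unadjusted p under 0.05 in edgeR, 3 of them were higher and 2 lower. All 8 endothelial markers were above 0 (median 0.13), and all 4 distal convoluted tubule markers tested were below 0 (median -0.17). Neither of the last 2 lists had a gene at that p, and none of these 3 lists had a call. The part of these lists in the proximal tubule values was not tested.

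Kap differed between the sets. In set B, Kap was at 839, 1034 and 985 CPM in the controls, and at 897 to 1274 CPM with a median of 1114 CPM in the 6 DKO libraries. In set C it was at 1117, 1164, 652, 741 and 1336 CPM in the controls and 456, 717, 518 and 374 CPM in the DKO libraries. DKO and control libraries overlapped in both sets, but in set B 4 of 6 DKO libraries were above all controls, and in set C 3 of 4 were below all controls. The log2 fold change was 0.23 (SE 0.14) in set B and -0.98 (SE 0.22, edgeR adjusted p = 0.0172) in set C, against -0.40 (SE 0.19, edgeR adjusted p = 0.699) with both sets. The values for 1 set come from fits of that set alone. In a fit of both sets, the difference of set C less set B was -1.16 (SE 0.28, edgeR adjusted p = 0.0438). It was the only one of 36 called where 1.3% of all genes were, in a comparison chosen after the values of both sets were seen. In that comparison 10 of the 36 had an unadjusted p under 0.05 in edgeR, against 22.1% of all genes.

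Gatm was at 136, 198 and 144 CPM in the controls of set B, and at 132 to 197 CPM with a median of 159.9 CPM in its DKO libraries. In set C it was at 278, 192, 160.4, 173 and 217 CPM in the controls and 108, 147, 146 and 127 CPM in the DKO libraries. With set C fitted alone the log2 fold change was -0.65 (SE 0.16, edgeR adjusted p = 0.0285). With set B alone, where the groups overlapped fully, it was 0.050 (SE 0.16). In the fit of both sets, the difference between the sets was -0.65 (SE 0.23, edgeR adjusted p = 0.113). Within set C 4.68% of all genes were called (569 of 12169), and Kap and Gatm were the 2 called of 36 proximal tubule genes, a share near that background. The mitochondrial share was 3.01% to 7.80% in the set C controls and 2.73% to 4.27% in the DKO libraries, and both this share and Xist were tried as covariates. With the mitochondrial share as a covariate, Kap was at -0.76 (edgeR adjusted p = 0.214) and Gatm at -0.57 (edgeR adjusted p = 0.234), and 8 genes were called in all. With Xist as a covariate Kap was at -0.998 (edgeR adjusted p = 0.0496) and Gatm at -0.62 (edgeR adjusted p = 0.0841), with 161 genes called.

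Slc22a8 showed the reverse order of the sets. In set B it was at 122, 132 and 141 CPM in the controls and 79.8 to 124 CPM, median 88.2 CPM, in the DKO libraries, of which only the highest reached the controls. In set C it was at 130.4, 97.3, 179.8, 119.7 and 123 CPM in the controls and 133, 112, 135 and 138 CPM in the DKO libraries, within the range of the controls. With each set fitted alone, the log2 fold changes were -0.49 (SE 0.14, edgeR adjusted p = 0.653) and -0.030 (SE 0.15). The difference in the fit of both sets, 0.50 (SE 0.22), was not called (edgeR adjusted p = 0.182).

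Slc5a2 followed the pattern of Kap without a call, and it was not alone. The difference of set C less set B was -0.85 for Slc3a1 (edgeR adjusted p = 0.0623), -1.14 for Slc7a9 (0.0633), -0.82 for Slc7a7 (0.104) and -1.06 for Slc5a2 (0.110). Each of these was above 0 in set B and below 0 in set C. Slc5a2 was at 23.2, 19.4 and 31.7 CPM in the controls of set B and at 21.7 to 31.5 CPM, median 28.2 CPM, in its DKO libraries. In set C it was at 24.1, 53.5, 29.3, 38.01 and 52.9 CPM in the controls and 21.1, 26.0, 26.8 and 8.47 CPM in the DKO libraries. The ranges overlapped in both sets, and the log2 fold changes were 0.16 (SE 0.19) in set B and -0.95 (SE 0.28, edgeR adjusted p = 0.0612) in set C.
Slc5a12 was at 27.5, 30.5 and 31.5 CPM in the controls of set B and 19.0 to 32.8 CPM, median 26.0 CPM, in its DKO libraries. In set C it was at 23.2, 50.8, 36.3, 47.5 and 45.5 CPM in the controls and 27.0, 34.5, 28.6 and 28.0 CPM in the DKO libraries. Its log2 fold change was below 0 in both sets, -0.22 (SE 0.19) and -0.47 (SE 0.20).

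The 3 comparisons use separate control libraries, and their values for the genes can be set side by side. Of the 35 genes tested in all 3, 16 were below 0 in each and 0 were above 0 in each, against 11.2% and 9.66% of the 11733 genes tested in all 3. With the mitochondrial share as a covariate in the 3 fits, 8 were below 0 in each and 1 was above 0 in each, against 11.6% and 12.4% of all genes, and 6 of the 16 were among the 8. The 16 were the organic ion transporters Slc22a2, Slc22a6, Slc22a8 and Slc22a12, the glucose carriers Slc5a2 and Slc2a2, the endocytosis genes Cubn and Amn, the enzymes Anpep, Gatm, Ggt1 and Miox, and Slc34a1, Slc3a1, Slc4a4 and Slc13a3. Slc22a8 had the values -0.50, -0.66 and -0.23 in Flcn KO, Flcn/Tfeb DKO and Flcn/Tfe3 DKO, and the value in Flcn/Tfeb DKO turned to 0.26 with that covariate. Slc22a6 had -0.46, -0.15 and -0.21. None of the 16 was called in the 3 fits without the covariate. With each set fitted alone, the sign in Flcn/Tfe3 DKO depended on the set for many of them. Above 0 in set B and below 0 in set C were Amn, Cubn, Gatm, Slc22a12, Slc3a1 (0.33 and -0.56) and Slc5a2. Below 0 in set B and above 0 in set C were Anpep, Ggt1, Slc13a3 (-0.42 and 0.15), Slc22a2 and Slc4a4. Slc22a6, Slc22a8, Slc2a2 and Slc34a1 were below 0 in both sets.

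Tests of the difference between crosses called 0 of the 37 genes in edgeR, and in DESeq2, in each of the 3 pairs. For Flcn/Tfeb DKO less Flcn KO, 2 of 13049 genes (0.0153%) were called, 0 of the 37 had an unadjusted p under 0.05 (5.95% of all genes), and the median difference was -0.053, with -0.23 to 0.14 when 1 library was left out, the lowest without control Flcn/Tfeb replicate 2 and the highest without replicate 3. For Flcn/Tfe3 DKO less Flcn KO, 0 of 13209 genes (0.0%) were called, with 978 (7.4%) at an unadjusted p under 0.05, and 2 of the 37 had such a p, Slc1a1 (0.50, SE 0.23) and Hnf4a (0.48, SE 0.23). The median was 0.13, with 0.088 to 0.21 when 1 library was left out and 0.017 with set C alone, the lowest of the former without control Flcn replicate 3 and the highest without control Flcn/Tfe3 replicate 3. For Flcn/Tfe3 DKO less Flcn/Tfeb DKO, 3 of 13637 genes (0.022%) were called and 5 of the 37 had an unadjusted p under 0.05, as did 12.2% of all genes. Slc5a1 had the lowest, with a difference of 0.83 (SE 0.25, edgeR adjusted p = 0.279), from a fold change of -0.80 in Flcn/Tfeb DKO and 0.035 in Flcn/Tfe3 DKO. Slc1a1 had 0.70 (SE 0.29, edgeR adjusted p = 0.362), which was 0.28 without control Flcn/Tfeb replicate 3 and 0.40 with the mitochondrial share as a covariate. In both pairs with the Flcn/Tfe3 cross the set and the cross cannot be told apart.

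Next, the covariation of the genes between libraries of the same group and set was described, from log2 CPM with each group's mean within its set removed. Across the 35 libraries a gene's correlation with the mean of the other 36 averaged 0.41 (jackknife SE 0.094 over libraries). Libraries share depth and mitochondrial share, so these values are a description. For 13 of the 37 genes r was at least 0.5, as for 1.48% of the 13691 other genes, and for 9 it was under 0.2. The mean correlation between pairs of the genes was 0.20, against 0.00093 over all genes. The mean correlation with the other genes was 0.53 in the 17 libraries of set A, 0.32 in the 9 of set B and 0.012 in the 9 of set C, and the joint variation was seen in sets A and B.

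Lrp2 followed the rest most closely (r = 0.76; rho = 0.77; 0.73 without the 2 libraries farthest from the median; 0.83, 0.86 and -0.11 in sets A, B and C). It was followed by Slc22a6 (0.72), the peptidase Ggt1 (0.66), Slc1a1 (0.65), Amn (0.64) and the fatty acid transporter and ligase Slc27a2 (0.63). At the other end were Keg1, an acyltransferase-like kidney gene (0.032), the neutral amino acid carrier Slc6a19 (0.046), Slc5a12 (0.060), the sulfate carrier Slc13a1 (0.075), Slc34a3 (0.078) and Slc5a2 (0.099). Slc22a6 and Slc22a8 ran together with r = 0.60 (rho = 0.51; 0.53 without the 2 farthest libraries; 0.68, 0.53 and 0.39 in sets A, B and C).

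**Figure D4:**
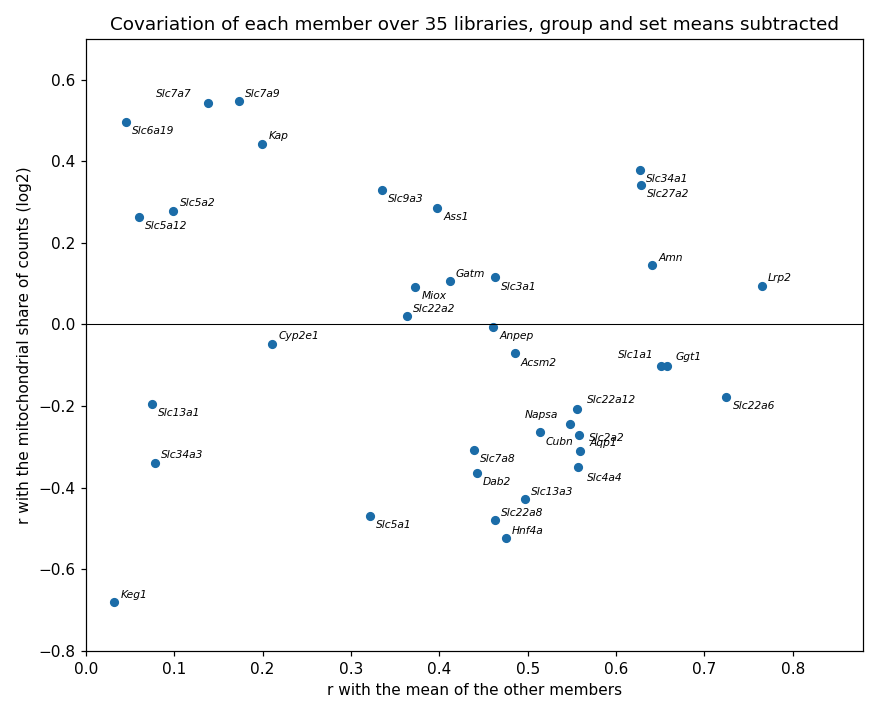
For each of the 37 genes, its correlation with the mean of the other genes (horizontal) and with the mitochondrial share of the library (vertical), over 35 libraries with group means within sets removed. Lrp2 is farthest right at 0.76, and Keg1, at 0.032, is lowest on the vertical axis at -0.68.

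The genes ran with the mitochondrial share about as often as other genes did. For 10 of the 37 r with that share was -0.3 or lower and for 7 it was 0.3 or higher, against 22.7% and 21.7% of other genes. Keg1 (-0.68; rho = -0.69), Hnf4a (-0.52) and Slc22a8 (-0.48) were lowest, and Slc7a9, the light chain of the cystine carrier (0.55; rho = 0.47), Slc7a7 (0.54) and Slc6a19 (0.50) highest. For Keg1 the sign held in every set (-0.75, -0.58 and -0.79 in sets A, B and C), and for Slc7a9 r was 0.61, -0.034 and 0.74. The first component of the genes' variation held 26.2% of it, with 36 of 37 weights of the same sign. The second held 21.2%, with 18 positive weights, and ran with the mitochondrial share at r = 0.61 over all libraries (rho = 0.44; 0.49 without the 2 farthest) and at 0.81, -0.55 and 0.67 in sets A, B and C.

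Of genes outside the 37, those that ran most closely with their mean were the brush border protease Mep1a (r = 0.81), the P450 Cyp4a12a (0.78), the tyrosine breakdown enzyme Hgd (0.76), the scaffold Pdzk1 (0.72), the membrane protease Mme (0.72), Ttc36 (0.72), Ndrg1 (0.72), Serpina6 (0.71), Cdh16 (0.71) and Aldh4a1 (0.71), over 35 libraries. Of these 10, 5 were in a list of 65 further proximal tubule genes: Mep1a, Hgd, Pdzk1, Mme and Ttc36. Cyp4a12a averaged 1.63 CPM in the controls. Cdh16 encodes the cadherin whose promoter drives the Cre of these mice.

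The mean of the 37 genes ran with that of the 65 further genes at r = 0.88 (rho = 0.82; 0.80 without the 2 farthest libraries), but at 0.96 in set A, 0.47 in set B and 0.056 in set C. It also ran with podocyte markers (0.53; rho = 0.57; 0.51 without the 2 farthest; 0.61, 0.61 and 0.40 in the sets) and with thick ascending limb markers (0.51; rho = 0.57; 0.49; 0.52, 0.75 and 0.45). With the library total r was 0.13 (rho = 0.060) and with the mitochondrial share -0.11 (rho = -0.037).

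Cyp2e1 ran with genes of the liver. Over 35 libraries it ran with the mean of 8 hepatocyte genes at r = 0.90 (rho = 0.88; 0.88 without the 2 farthest libraries; 0.92, 0.89 and 0.93 in sets A, B and C) and with the mean of the other 36 proximal tubule genes at 0.21. The mean of the 37 genes also ran with the hepatocyte genes, at 0.40 (rho = 0.39; 0.48 without the 2 farthest), with 0.79 in set A, -0.38 in set B and -0.076 in set C. Albumin ranged from 14.9 to 1902 CPM. The 8 hepatocyte genes summed to 646 to 7864 CPM in the controls and 658 to 2621 CPM in the DKO libraries of set B, and to 408 to 4173 CPM and 253 to 396 CPM in set C, without overlap in set C. There, 3 of 14 lists did not overlap, and the share of single genes without overlap in set C alone was not computed. In set B, Cyp2e1 was at 33.9, 3.88 and 2.93 CPM in the controls and at 1.27 to 14.5 CPM, median 8.30 CPM, in the DKO libraries. In set C it was at 9.19, 4.87, 3.53, 25.1 and 2.35 CPM in the controls and 4.79, 2.14, 5.78 and 3.50 CPM in the DKO libraries, overlapping as in set B. Its log2 fold change in Flcn/Tfe3 DKO was -0.97 (SE 0.51, edgeR adjusted p = 0.727), the widest error of the 36 genes, and it was -0.26 without control Flcn/Tfe3 replicate 1 and -0.096 with a replicate block. The hepatocyte list was chosen after the values were seen, and its part in the level of Cyp2e1 was not tested.

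**Figure D5:**
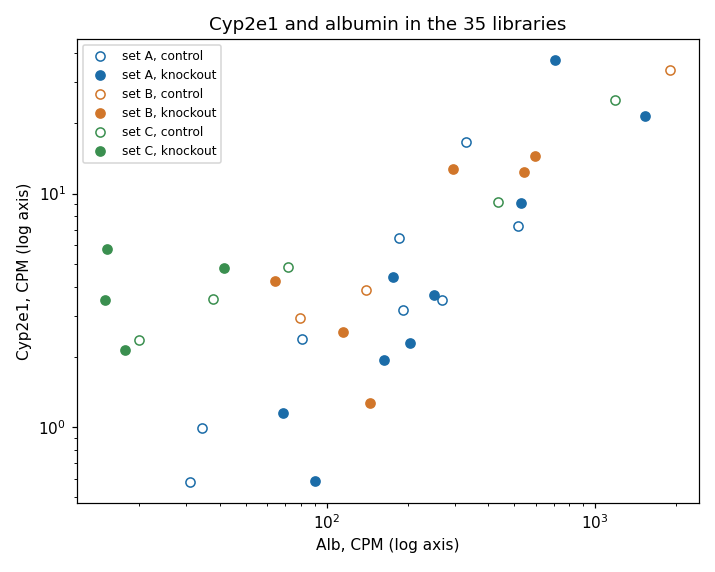
Level of Cyp2e1 against that of albumin in each of the 35 libraries, both in CPM on log axes, coloured by set, open for controls and filled for knockouts. The library with the most albumin has the most Cyp2e1 in set B (33.9 CPM) and in set C (25.1 CPM), and in set A the most Cyp2e1 (37.4 CPM) is in another library.

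The list of further proximal tubule genes, with transporters, brush border enzymes and enzymes of sugar and amino acid metabolism, was tested in the same fits. In Flcn KO, 57 were tested, 1 was called (0.52% of all genes), 45 were below 0 (51.5% of all genes) and the median log2 fold change was -0.18. In Flcn/Tfeb DKO, 60 were tested, 0 were called (0.0% of all genes), 44 were below 0 (52.1% of all genes) and the median was -0.22. In Flcn/Tfe3 DKO, 58 were tested, 2 were called (0.385% of all genes), 39 were below 0 (48.1% of all genes) and the median was -0.095. The gene called lower in Flcn KO and in Flcn/Tfe3 DKO was Pck1, the rate-limiting enzyme of glucose synthesis. Pck1 was at 147, 168, 147, 138 and 171 CPM in control Flcn and 100.3, 80.6, 57.8, 85.3 and 111 CPM in Flcn KO libraries, without overlap, and its log2 fold change was -0.83 (SE 0.15, edgeR adjusted p = 0.00919). In Flcn/Tfe3 DKO it was -0.65 (SE 0.14, edgeR adjusted p = 0.0295) and in Flcn/Tfeb DKO -0.22 (SE 0.24, edgeR adjusted p = 0.828), and the difference between the first and the last was not called (0.60, SE 0.28, edgeR adjusted p = 0.824). The endosomal chloride transporter Clcn5 was higher in Flcn/Tfe3 DKO libraries (0.48, SE 0.11, edgeR adjusted p = 0.0475).

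Some values rest on reads that cannot be told apart from a neighbour, since strand in the counting is not given in the sources used here. Slc5a2 overlaps BC017158, Slc22a12 overlaps Nrxn2, Slc7a7 overlaps Oxa1l, Slc3a1 overlaps Prepl, Slc1a1 overlaps 4430402I18Rik, and Hnf4a overlaps its antisense gene Hnf4aos, each counted at 1 CPM or more in these libraries.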

How the data were processed

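RNA of whole kidneys at postnatal day 2 was sequenced from the 3′ end in 35 libraries. Per the study's methods, bbduk removed adapters (the submitters' processing notes name Trim Galore), STAR placed the reads on mm10, and HTSeq-count gave the table values. The deposited values are raw counts per gene, whole numbers without normalization, and rows for reads on no gene were left out. The 3 groups of tables were joined by Ensembl identifier. A column of the tables that holds no library (1 column) was not used.

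Comparisons were run in edgeR 4.0.16 (R 4.3.3) with filterByExpr, TMM factors and the quasi-likelihood test, Benjamini-Hochberg adjusted over all genes tested and called at an adjusted p under 0.05. The fit of the Flcn/Tfe3 cross had a term for the set. Differences between crosses were interaction terms. CPM used TMM library sizes, and log2 CPM a prior count of 2. The fits were tested on simulated data. Between 63 pairs of libraries of the same group and set the chi-square ran from 2.71 to 39.1 per degree of freedom, so none was treated as a repeat of another.

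The genes, the lists and the tests were chosen with earlier results of these data known. Named were the 6 highest genes, in each comparison those called and the 5 largest changes at 5 CPM or more, and the 10 genes most like the mean of the 37. Alternatives were size factors (RLE), filters, DESeq2 1.42.0, Xist or mitochondrial share as a covariate, a replicate block, each set alone and each library left out. Gene starts and promoters came from RefSeq tables.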

Additional observations from a re-analysis of the deposited data

Results flagged for a closer look

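The 19 genes named for their level or change, not all 37, and the mean of the 37 were looked at for a library far from the others. Among the 120 combinations of these with a group of 4 or more libraries, 3 had a library far from the others, where chance alone would mark about 1 in 20. Anpep was at 151 CPM in Flcn/Tfe3 DKO replicate 10, with the other 3 DKO libraries of set C at 84.2 to 94.5 CPM. Slc22a2 was at 352 CPM in control Flcn/Tfe3 replicate 6, with the other 4 controls of set C at 212 to 232 CPM. Slc5a1 was at 21.6 CPM in control Flcn/Tfe3 replicate 5, with the other 4 at 40.4 to 48.0 CPM. These are 3 different libraries, all in set C.

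Kap differed in its response between the sets of the Flcn/Tfe3 cross by -1.16 on the log2 scale, set C less set B (edgeR adjusted p = 0.0438), from 0.23 in set B to -0.98 in set C.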

How the results depend on the processing

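The count of genes called among the 37 stayed at 0 in every alternative for the Flcn/Tfeb cross and for the 3 differences between crosses. It became 1 in Flcn KO with the mitochondrial share as a covariate, where 1.23% of all genes were called. It became 2 of 36 in Flcn/Tfe3 DKO with set C alone, where 4.68% of all genes were called. Under DESeq2 it was 1 in control Flcn/Tfeb against control Flcn, where 24 of 4301 genes were called. In set C against set B of the controls it was 0 with Xist (19 of 12426 genes called) and 0 with the mitochondrial share (12 of 12426). Leaving out each library in turn gave 0 to 1 called in control Flcn/Tfeb against control Flcn, with a median of -0.36 to -0.022. The 1 was Hnf4a, without control Flcn/Tfeb replicate 3, where 162 of 12253 genes were called. For set C against set B, leaving out a library gave 0 to 5, with a median of -0.051 to 0.074. The count was 0 without control Flcn/Tfe3 replicates 1, 7 or 8, where 54, 312 and 263 genes were called in all. It was 1 without replicates 2, 3 or 4, where 280, 84 and 283 were. It was 5 without replicate 6, where 1949 of 12388 were. These fits tested 12307 to 12740 genes. The median difference of Flcn/Tfeb DKO less Flcn KO was -0.23 to 0.14 with a library left out, that of Flcn/Tfe3 DKO less Flcn/Tfeb DKO was -0.055 with the mitochondrial share and -0.020 to 0.26 with a library left out, and that of Flcn/Tfe3 DKO less Flcn KO was 0.017 with set C alone and 0.088 to 0.21 with a library left out. Covariation was 0.53 in set A and 0.012 in set C. In Flcn/Tfeb DKO, Hnf4a turned to 0.86 and Slc22a8 to 0.26 with the mitochondrial share, Slc1a1 went to -0.041 with that share, and Hnf4a ran from -1.04 to 0.39 with a library left out. In set B alone Kap was 0.23, Slc5a2 0.16 and Gatm 0.050. The cause was not tested for any of these.

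Replicate numbers did not pair the libraries: the lowest correlation of same-numbered libraries was -0.17, -0.12 and -0.32 in the 3 crosses, and 0 of 5, 1 of 3 and 1 of 5 pairs matched best with their own number. With the replicate block, 0 of the genes were called in each cross, the medians were -0.20, -0.19 and -0.10, and over all genes the calls went from 62 to 48 in Flcn KO and from 48 to 0 in Flcn/Tfe3 DKO. With DESeq2 they were 116 and 93.

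At these totals, genes with few counts, such as Slc34a3 with 0 to 21 counts in control Flcn/Tfe3 libraries, have levels too low to show any but large differences.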
